A study of Camellia sinensis with 9 samples.

Results

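The data compared microRNAs (miRNAs) of flower and root of *Camellia sinensis*, the tea plant, in 3 flower libraries (flower1, flower2 and flower45) and 3 root libraries (root13, root23 and root33), 6 of the 9 small RNA libraries of the series. The other 3 libraries were from leaf. The compared features were 341 distinct mature miRNA sequences, obtained by counting each sequence once among 371 listed miRNA names. All libraries came from untreated plants, from total RNA isolated with TRIzol. The sources used here give no cultivar, plant age or flower stage. They also do not say whether an organ's libraries are of different plants, so the p-values cover the spread of these libraries alone, and that spread may be technical. The organ labels could not be checked against marker genes, because the deposited table lists miRNAs only.

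Plant miRNAs are cut from hairpin precursors as a duplex of a 5p and a 3p arm. Usually the arm that is bound by an Argonaute protein guides cleavage of near-complementary messenger RNAs, and the opposite arm is degraded. Many conserved plant miRNA families target transcription factor genes that control organ identity, growth phase and hormone response, so organ-specific levels are a known feature of these families.

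The sequences that carry the main differences are printed here as deposited, from 5′ to 3′, with the seed (bases 2 to 8) in capitals. The first set holds the most abundant sequence of the libraries and the miR390, miR167 and miR172 sequences that differed between the organs, with the close relatives of miR167e_5p.
miR166a_3p/miR166b_3p: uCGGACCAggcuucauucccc
miR166c_3p/miR166l_3p: uCUCGGACcaggcuucauucu
miR390b_5p: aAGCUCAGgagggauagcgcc
miR390b_3p: cGCUAUCUauccugaguuuca
miR167e_5p: uGAAGCUGccagcaugaucug
miR167c_5p/miR167h_5p: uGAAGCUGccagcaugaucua
miR167b_5p: uGAAGCUGccagcaugaucuag
miR172f_3p: uGGGAAUCcugaugaugcugc

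The second set holds the miR156, miR535, miR171, miR395 and miR396 sequences, in which close relatives with a shared or nearly shared seed had different patterns. Names joined by a slash belong to the same sequence.
miR156g_5p: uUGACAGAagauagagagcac
miR156h_5p: uUGACAGAagagagagagcac
miR156c_5p/miR156e_5p: uUGACAGAagaaagagagcac
miR156f_3p/MIR156l_3p: uGCUCACUucucuucugucagc
miR535a_5p/miR535c2_5p: uGACAACGagagagagcacgc
miR535b_5p: uGACGACGagagagagcacgc
miR535d_5p: uGACGAUGagagagagcacgc
miR171h_3p: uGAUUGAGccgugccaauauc
miR171g_3p: uUGAGCCGcgucaauaucucu
miR171b_3p/miR171m_3p: uUGAGCCGcgucaauaucuc
miR171c_3p: uUGAGCCGugccaauaucgcg
MIR171x_3p: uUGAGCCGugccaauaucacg
miR395_3p/miR395g_3p: cUGAAGUGuuugggggaacuc
MIR395r_3p: uUGAAGUGuuuggaggaacuc
miR396a_5p/MIR396r_5p: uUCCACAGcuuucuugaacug
miR396b_5p: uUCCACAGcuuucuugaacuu

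Counted over distinct sequences, the libraries held 876770 to 1073284 miRNA counts in flower and 369605 to 662023 in root. Of the 341 sequences, 89 had no read in these 6 libraries, 123 had reads but fell under the low-count filter (at most 105 reads over the 6 libraries), and 129 were tested. The tested sequences held 99.97% of the counts. Across sequences, log2 CPM (counts scaled to a common library size) correlated at 0.928 to 0.954 between flower libraries, 0.912 to 0.944 between root libraries and 0.528 to 0.656 between organs. CPM values, counts per 1e+06, are scaled by edgeR's trimmed mean of M-values (TMM). The TMM scaling placed root13 0.52 below and root33 0.43 above the root mean (log2) in the median tested sequence. With the DESeq2 size factors these departures were 0.05 and 0.08, so the scaling was varied for every call, and calls that depended on it are named.

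By edgeR's quasi-likelihood test at an adjusted p under 0.05, 70 of 129 sequences differed between flower and root (54.3%), 33 higher (25.6%) and 37 lower in flower (28.7%). The flower and root libraries did not overlap in 87 of the 129 (67.4%), which include all 70 called sequences. The 33 sequences called higher held 38.6% of flower counts and 9.14% of root counts. The 37 called lower held 2.15% of flower counts and 19.4% of root counts. In 37 of the called sequences the log2 fold change was 4 or more in size, 15 higher and 22 lower. These are differences in RNA abundance of whole organs, in which fewer cells that make a miRNA and less of it per cell cannot be told apart.

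**Figure D1:**
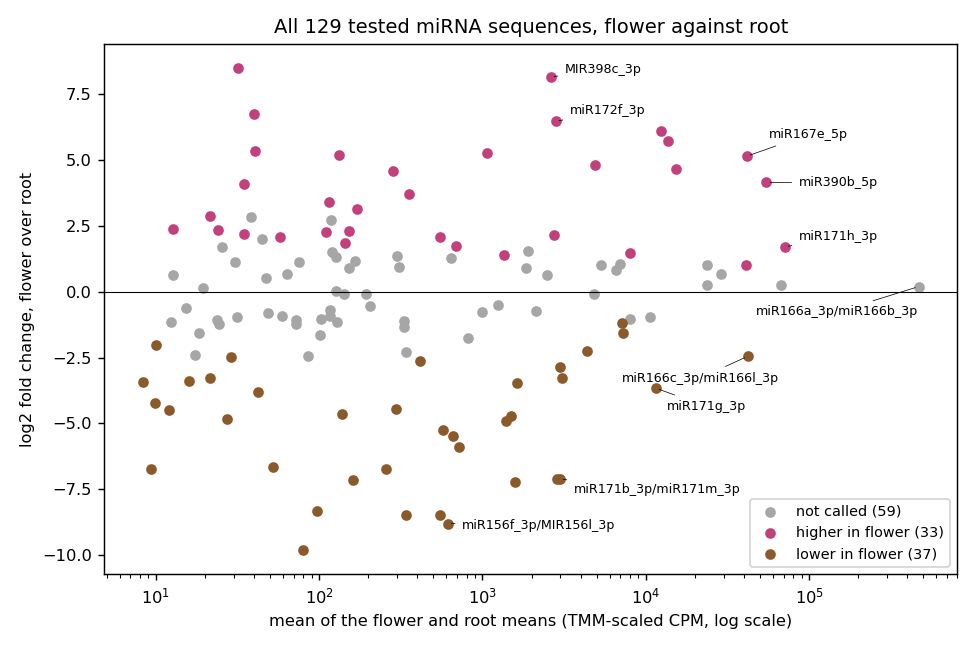
Each point is 1 of the 129 tested sequences, with the mean TMM-scaled CPM of the 2 organs (log scale) on the x axis and the log2 fold change of flower over root on the y axis. The most abundant sequence, miR166a_3p/miR166b_3p, sits near 0, while miR390b_5p and miR167e_5p are abundant and higher in flower, and miR166c_3p/miR166l_3p and miR171g_3p are abundant and lower.

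Under all 4 scalings (TMM, DESeq2 size factors, library totals and the authors' own divisor), 59 of the 70 calls were made in the same direction, 23 higher and 36 lower in flower. With library totals the calls split into 23 higher and 47 lower, with the divisor into 40 and 36, and with DESeq2's size factors into 39 and 37. The median log2 fold change of all tested sequences was -0.10 with TMM, -0.73 with library totals and 0.22 with the divisor. Leaving out 1 library at a time, 55 calls were made in all 6 fits, 19 higher and 36 lower. The fit without root23 made these 55 of the 70 calls, so each of the other 15 was lost without root23 and some also without other libraries; the named sequences among them are marked as not called without root23.

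The sequences called higher in flower were nearly all 21 bases long. Of the 33 called higher, 32 were 21 bases long and 15 started with U. Of the 37 called lower, 25 were 21 bases long, 6 had 20 and 5 had 22 bases, and 23 started with U. Among all 129 tested, 87 had 21 bases and 61 started with U. The share with a 5′ U among those called higher was thus near that of all tested. So was the share of 21 bases among those called lower. These counts were not tested. As shares of all counts, sequences with a 5′ U took 87.2%, 86.6% and 87.2% in flower1, flower2 and flower45, and 96.1%, 96.5% and 95.0% in root13, root23 and root33. Every root library lay above every flower library (exact permutation test, two-sided, p = 0.1, the smallest that 3 against 3 allows; 0.2 adjusted over 10 such measures). The 2 main flower sequences with another 5′ base were miR390b_5p, which starts with A, and miR390b_3p, which starts with C. No sequence of the miR390 family starts with U, and the family held a mean of 10.9% of counts in flower and 0.77% in root. The lower 5′ U share of flower therefore cannot be read apart from this family, and a share without it was not computed. Sequences of 22 bases took 1.42% ± 0.33 of the counts in flower and 4.14% ± 1.02 in root (SD, n = 3 each; exact p = 0.1), again with no overlap.

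The miR172 and miR156 families act at opposite ends of a known switch. In Arabidopsis, miR156 represses SPL transcription factors and keeps plants juvenile, whereas miR172 represses AP2-like factors and rises with age and flowering. Both moved here: the miR172 total was higher and the miR156 total lower in flower. The miR172 total counted 4156, 6036 and 3539 reads in flower1, flower2 and flower45, and 62, 68 and 130 in root13, root23 and root33. In TMM-scaled CPM this was 5830 ± 1314 in flower and 152 ± 98.4 in root (SD, n = 3 each; log2 5.26 ± 0.72 SE, edgeR adjusted p = 0.000439). The miR156 total counted 5211, 3811 and 2866 in flower and 11215, 13397 and 11969 in root. Its level was 5046 ± 1257 CPM in flower and 20258 ± 4640 in root (log2 -2.01 ± 0.47 SE, edgeR adjusted p = 0.00587). The log2 ratio of miR172 to miR156 counts, which needs no scaling between libraries, was -0.33, 0.66 and 0.30 in flower and -7.50, -7.62 and -6.52 in root. The 2 families were thus about equal in flower, and miR156 exceeded miR172 in every root library. The ratio was higher in every flower library than in every root library (exact permutation test between the organs, p = 0.1, or 0.2 adjusted over 10 measures).

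A single sequence, miR172f_3p, made up most of the flower miR172 signal, with 4027, 5815 and 3244 counts in flower and 1, 4 and 90 in root. Its share of the family was 91.7% to 96.9% in flower, but 1.61%, 5.88% and 69.2% in root13, root23 and root33, so root33 differed from the other root libraries. It was 88.1-fold higher in flower (log2 6.46 ± 1.59 SE, edgeR adjusted p = 0.00985). MIR172l_5p and MIR172l_3p were also called higher, the latter not with library totals and not called without root23, flower2 or flower45. In contrast, miR172a_3p fell against the rest of its family (natural log -4.51, diffSpliceDGE adjusted p = 0.000137). It took 0.18% to 0.42% of miR172 counts in flower and 13.8% to 32.3% in root, while its own level did not pass the test (log2 -1.08, edgeR adjusted p = 0.11).

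In the miR156 family, 9 of 12 tested sequences were lower in flower and 1 was higher. The miR156g_5p sequence led the family in both organs, with 4517, 3378 and 2429 counts in flower and 5371, 6538 and 5998 in root. It changed little in level (log2 -1.18 ± 0.43 SE, edgeR adjusted p = 0.046, not called with the divisor or DESeq2's size factors, nor without flower2, flower45, root23 or root33), but took 86.7% ± 1.94 of miR156 counts in flower and 48.9% ± 1.12 in root. Most other members were rare in flower. The sequence of miR156f_3p and MIR156l_3p had 3, 1 and 2 counts in flower and 576, 1184 and 501 in root (log2 -8.80 ± 0.86 SE, edgeR adjusted p = 0.000314). No flower library held a read of the miR156c_5p/miR156e_5p sequence, which had 9, 165 and 101 in root and so was at least 41.2-fold lower in flower against a floor of 3 counts per library. The miR156d_3p sequence followed the same pattern with 1, 1 and 2 counts in flower and 652, 295 and 339 in root. Of the 5p sequences, miR156a_5p fell by 4.89 and the sequence of miR156b_5p and MIR156j_5p, which adds an A at the 3′ end, by 5.49 on the log2 scale.

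The exception in the family was miR156h_5p, with 272, 234 and 208 counts in flower and 16, 22 and 23 in root. All flower libraries lay above all root libraries, and the sequence rose both alone (log2 3.15 ± 0.66 SE, edgeR adjusted p = 0.00469) and against the rest of the family (natural log 3.57, diffSpliceDGE adjusted p = 0.000103). It differs by 1 base from each of its neighbours. With positions counted from 1 at the 5′ end, miR156c_5p/miR156e_5p differs from it by A12G and from miR156g_5p by A12U, and miR156h_5p differs from miR156g_5p by G12U, the base of the sequence named first standing first. Thus 3 sequences with the same seed, 1 base apart outside the seed, were absent from flower, slightly lower in flower and higher in flower. How the authors' counting treated mismatches and end differences is stated in none of the sources used here, so counts of such near-identical sequences are uncertain where reads of one could be given to another.

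The miR535 family, related to miR156 in sequence and known to target SPL genes, fell as well, with 4173, 4226 and 3780 counts in flower and 9948, 12087 and 11245 in root (log2 -1.83 ± 0.46 SE, edgeR adjusted p = 0.00759). Of its 6 tested sequences, 4 were lower in flower and none was higher. The size of the difference varied among 3 relatives that differ by 1 base each. The sequence of miR535a_5p and miR535c2_5p fell by 1.55, miR535b_5p, which differs from it by A5G, fell by 3.29, and miR535d_5p, which differs from miR535b_5p by C7U, fell by 8.47 on the log2 scale. The last had 2, 5 and 0 counts in flower and 743, 685 and 595 in root. Over the SPL and AP2 list (miR156, miR535 and miR172), 4 of 22 tested sequences were higher and 13 lower in flower, with a median log2 fold change of -2.43, against -0.10 for all tested sequences. In this and the later lists, both arms are counted, and a sequence under several family names counts in each list. The counts of lists and families are to be read beside the shares of all 129 tested sequences, 25.6% higher and 28.7% lower in flower.

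**Figure D2:**
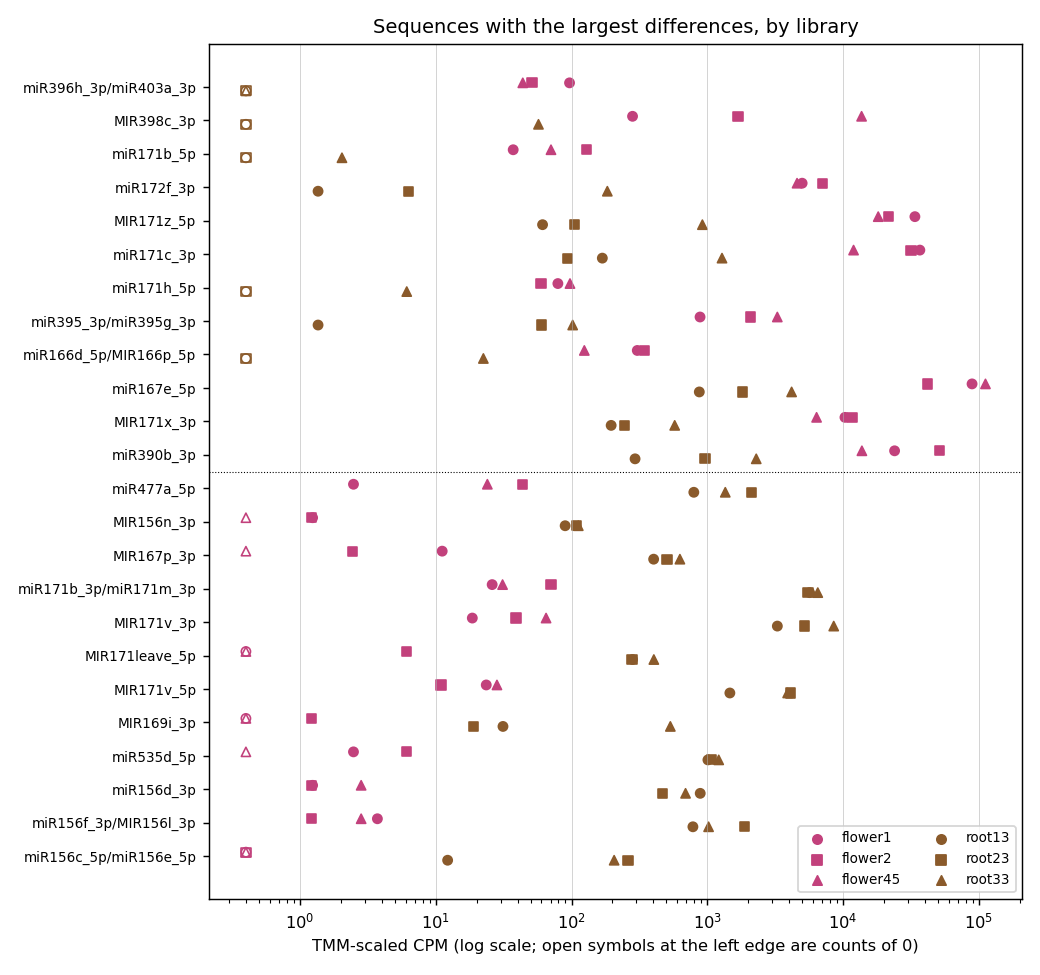
Each line is 1 of the 12 sequences with the largest increase (upper block) or decrease (lower block) in flower that had a mean of at least 50 CPM in the higher organ. Points give the TMM-scaled CPM of each library on a log scale, and open symbols mark counts of 0. Flower (pink) and root (brown) did not overlap in any of them, and root33 is the highest root library in most of the upper block.

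Of the families that act on auxin signalling, miR390 and miR167 were abundant in flower and higher there than in root. The miR390 family starts the production of trans-acting small RNAs that silence auxin response factor genes. Its main sequence, miR390b_5p, had 78609, 80151 and 82280 counts in flower and 1288, 3621 and 4968 in root. The flower libraries lay within a narrow range, far above every root library. In CPM it stood at 103687 ± 10776 in flower and 5863 ± 4191 in root (SD, n = 3 each), a 17.7-fold difference (log2 4.14 ± 0.66 SE, edgeR adjusted p = 0.00147). The opposite arm of the same hairpin, miR390b_3p, moved with it, with 19309, 42087 and 9739 counts in flower and 216, 609 and 1124 in root (log2 4.65 ± 0.89 SE, edgeR adjusted p = 0.00306). The ratio of the arms did not pass the test (log2 difference -0.42, limma adjusted p = 0.748). The 5p sequence of the other miR390 hairpin, miR390a_5p, was rare, at 24, 31 and 32 counts in flower and 3, 2 and 4 in root. It is miR390b_5p with a U added at the 3′ end, so this arm may not tell the hairpins apart. Its opposite arm, miR390a_3p/MIR390e-3p, had 77, 77 and 34 counts in flower and 75, 123 and 115 in root. That arm was not called alone (log2 -1.16, edgeR adjusted p = 0.172) but was lower in flower against its family (natural log -3.72, diffSpliceDGE adjusted p = 4.3e-05). The family total was called higher in flower under every scaling (log2 4.21 ± 0.63 SE, edgeR adjusted p = 0.000472).

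The miR167 family, which targets the auxin response factors ARF6 and ARF8 that are needed for flower maturation in Arabidopsis, was higher in flower as a total (log2 1.88 ± 0.47 SE, edgeR adjusted p = 0.00759). The rise came with a change of the leading sequence. The miR167e_5p sequence had 71812, 34325 and 79165 counts in flower and 642, 1156 and 2048 in root (log2 5.14 ± 0.74 SE, edgeR adjusted p = 0.000942). It made up 66.4% ± 4.11 of miR167 counts in flower and 6.41% ± 3.15 in root. In root the family was mostly miR167b_5p, with 34.3% to 59.6%, and the sequence of miR167c_5p and miR167h_5p, with 33.8% to 53.3%. Their own levels were not called: miR167b_5p had a log2 fold change of -0.96 ± 0.38 SE (edgeR adjusted p = 0.0599) and the miR167c_5p/miR167h_5p sequence of 1.01 ± 0.57 SE (edgeR adjusted p = 0.166; called with the divisor and with DESeq2's size factors). The 3 share the seed GAAGCUG. The miR167c_5p/miR167h_5p sequence differs from miR167e_5p by A21G, and miR167b_5p extends it by a G at the 3′ end. The shift in shares was therefore between sequences that differ only at the 3′ end. Of these, only miR167e_5p was called in its own level with TMM scaling. MIR167p_3p went the other way, with 9, 2 and 0 counts in flower and 296, 320 and 308 in root (log2 -6.74 ± 1.18 SE, edgeR adjusted p = 0.0022).

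For miR393, which targets the auxin receptor genes of the TIR1/AFB group, all 3 tested sequences were called higher in flower, by log2 1.73 to 2.17, but none of them was called with library totals as the scaling, without flower45, without root13 or without root23, and miR393b_5p/miR393c_5p was also not called without flower1. Their total did not pass the test (log2 1.77 ± 0.68 SE, edgeR adjusted p = 0.0506). The miR160 family, which targets the auxin response factors ARF10, ARF16 and ARF17, had 999, 7466 and 4675 counts in flower and 5825, 5809 and 9402 in root. Its organs overlapped, and no sequence of it was called. Over the auxin list (miR160, miR167, miR390 and miR393), 8 of 17 tested sequences were higher and 1 lower. The median log2 fold change was 1.70, against -0.10 for all tested sequences. With library totals 5 were higher and 4 lower.

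**Figure D3:**
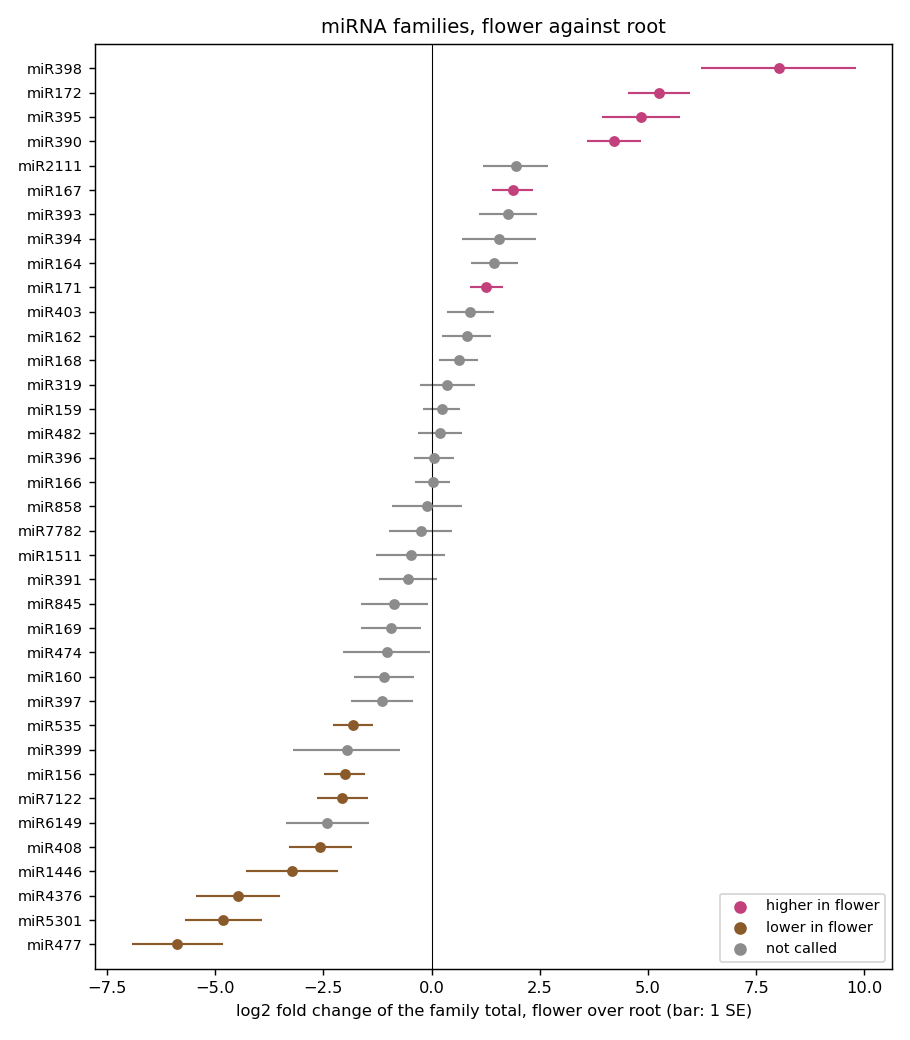
Log2 fold changes of flower over root are shown for the 37 tested family totals, with bars of 1 SE. The 6 families higher in flower run from miR171 to miR398, and the 8 lower ones from miR535 to miR477.

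The miR171 family targets GRAS transcription factors of the HAIRY MERISTEM group, which maintain shoot meristems in Arabidopsis. Its total rose in flower (log2 1.27 ± 0.38 SE, edgeR adjusted p = 0.0176), a call not made with library totals (log2 0.65) or without root23 (1.26). Among its 16 tested sequences, 7 were called higher and 6 lower, with log2 fold changes from -7.23 to 6.74, so members of the family changed in opposite directions. The leading sequence in both organs, miR171h_3p, had 110542, 77849 and 66083 counts in flower and 21777, 21855 and 17666 in root (log2 1.70 ± 0.36 SE, edgeR adjusted p = 0.00454). It held 63.9% ± 6.30 of the family in flower and 46.9% ± 1.28 in root.

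The second sequence of the family differed between the organs. In root it was miR171g_3p, with 15773, 13809 and 10203 counts and 1240, 1665 and 1063 in flower. In CPM it was 12.6-fold lower in flower, at 1688 ± 293 against 21339 ± 496 in root (edgeR adjusted p = 0.000349), and its share of the family was 1.03% ± 0.29 in flower and 30.3% ± 4.07 in root. In flower the next places were held by miR171c_3p and MIR171z_5p. The miR171c_3p sequence had 29633, 25947 and 8456 counts in flower and 124, 59 and 629 in root (log2 5.70 ± 1.14 SE, edgeR adjusted p = 0.00388). MIR171z_5p had 27251, 17642 and 12848 counts in flower and 45, 67 and 451 in root (log2 6.08 ± 1.15 SE, edgeR adjusted p = 0.00294). For both, root33 was the highest root library by a wide margin, still below every flower library.

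Of the 5 tested sequences with the seed UGAGCCG, 2 were higher in flower (miR171c_3p and MIR171x_3p, which differ by A19G, with MIR171x_3p named first) and 3 were lower. From miR171g_3p to MIR171x_3p the differences are C9U, U11C, U19A and U21G. The shorter form of miR171g_3p, listed as miR171b_3p and miR171m_3p and lacking its last U, had 21, 58 and 22 counts in flower and 4166, 3495 and 3191 in root (log2 -7.11 ± 0.66 SE, edgeR adjusted p = 0.000314). A further hairpin was found mostly in root with both arms: MIR171v_5p had 19, 9 and 20 counts in flower and 1078, 2607 and 1914 in root, and MIR171v_3p had 15, 32 and 46 in flower and 2411, 3314 and 4182 in root. Its arm ratio was the same within error (log2 difference 0.00, limma adjusted p = 0.997). MIR171leave_5p, named so in the table, had 0, 5 and 0 counts in flower and 207, 177 and 198 in root.

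**Figure D4:**
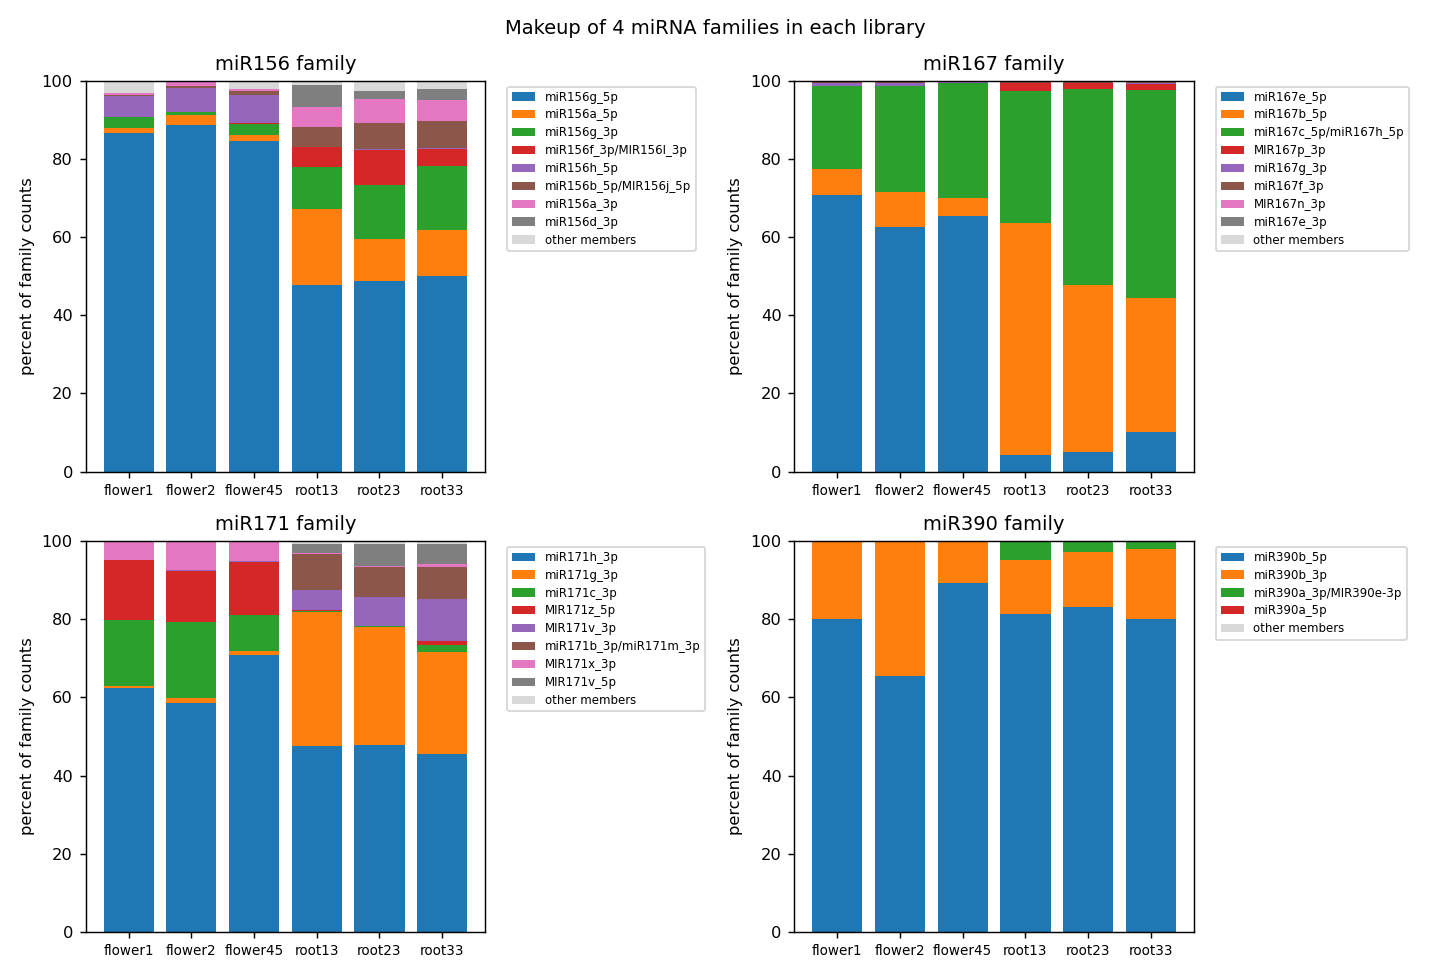
Stacked bars give the percent of family counts of each member in each of the 6 libraries, for the miR156, miR167, miR171 and miR390 families. The leading miR167 sequence changes from miR167b_5p and miR167c_5p/miR167h_5p in root to miR167e_5p in flower, miR171g_3p gives way to miR171c_3p and MIR171z_5p in flower, and miR390b_5p leads its family in both organs.

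The miR166 family restricts HD-ZIP III transcription factors, which set the upper side of lateral organs and the vascular pattern, and was the most abundant in every library. It made up 43.5%, 50.8% and 45.7% of counts in flower and 54.1%, 66.9% and 62.2% in root (exact p = 0.1), so as a share of counts every root library exceeded every flower library. These shares include the sequence of miR166h_3p, MIR166o_3p and MIR845h-3p, which is also listed under miR845 and left out of the family total. Without it the mean share was 42.2% in flower and 57.7% in root. In TMM-scaled CPM that family total overlapped between the organs (log2 0.02 ± 0.41 SE, edgeR adjusted p = 0.952), while with library totals it was called lower in flower (log2 -0.45, edgeR adjusted p = 0.0411). Within it, the sequence of miR166c_3p and miR166l_3p had 10252, 8221 and 11640 counts in flower and 25068, 68956 and 34857 in root. This sequence starts 2 bases upstream of the main one, shares 18 bases with it, and was 5.47-fold lower in flower (log2 -2.45 ± 0.51 SE, edgeR adjusted p = 0.00454). Another 3p sequence, that of miR166h_3p, MIR166o_3p and MIR845h-3p, was called higher, with 45189, 43566 and 39275 counts in flower and 15424, 17533 and 16174 in root (log2 1.01 ± 0.35 SE, edgeR adjusted p = 0.0426; not called with library totals nor without root23). The 3p sequences thus did not all move one way. Of the 6 tested 5p sequences, 5 were higher in flower and none lower, among them all 4 that share the seed GAAUGUU. Of these 5, the sequences of miR166a_5p/miR166b_5p, miR166f_5p and miR166h_5p/MIR166o_5p were not called without root23. The sequence of miR166d_5p and MIR166p_5p had 246, 282 and 88 counts in flower and 0, 0 and 11 in root, and miR166e_5p had 765, 373 and 156 in flower and 7, 15 and 17 in root.

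Other families that act on growth and organ boundaries differed in single members. miR164b2_5p, of the family that targets the CUP-SHAPED COTYLEDON NAC genes, had 6121, 15836 and 5868 counts in flower and 3588, 1882 and 2450 in root (log2 1.45 ± 0.52 SE, edgeR adjusted p = 0.0435; not called with library totals nor without flower1, flower2, root13 or root23). In the miR396 family, which represses GROWTH-REGULATING FACTOR genes, miR396b_5p led both organs and was not called (log2 0.26 ± 0.44 SE, edgeR adjusted p = 0.614). The sequence of miR396a_5p and MIR396r_5p, which differs from it by G21U, had 328, 913 and 468 counts in flower and 2128, 4457 and 2892 in root (log2 -2.86 ± 0.60 SE, edgeR adjusted p = 0.00454). Among miR319 sequences, which target TCP genes, MIR319d_5p took 1.77% to 4.34% of the family in flower and 30.7% to 49.1% in root (log2 -3.48 ± 0.75 SE, edgeR adjusted p = 0.0052), while miR319a_3p, from which it differs by G15U with miR319a_3p named first, was not called. In the miR169 family, which targets NF-YA genes, 3 of 9 tested sequences were lower in flower and none was higher. Over this list (miR164, miR166, miR169, miR171, miR319 and miR396), 17 of 47 tested sequences were higher and 13 lower. The median log2 fold change was 0.26, against -0.10 for all tested sequences. With library totals these medians were -0.28 and -0.73.

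Of the families that follow mineral supply in other plants, the miR398 and miR395 totals were higher and the miR408 total lower in flower, and those of miR397, miR399 and miR2111 were not called. The miR398 family targets copper/zinc superoxide dismutases, and its total was higher in flower by log2 8.02 ± 1.80 SE (edgeR adjusted p = 0.00447). Nearly all of it was MIR398c_3p, with 227, 1381 and 9688 counts in flower and 0, 0 and 28 in root. The organs did not overlap, but flower45 was far above flower1, and the leaf libraries also spread widely (56, 222 and 4698 counts). The miR408 family, which targets blue copper proteins, moved in the opposite direction, with 64, 53 and 30 counts in flower and 387, 204 and 128 in root (log2 -2.57 ± 0.73 SE, edgeR adjusted p = 0.015; not called without flower45). Its 3p sequence, miR408_3p/miR408b_3p, had 7, 12 and 6 counts in flower and 206, 183 and 113 in root. The miR397 family, which targets laccases, was not called (log2 -1.15 ± 0.72 SE, edgeR adjusted p = 0.223). In all, 1 of 5 tested sequences of the copper list (miR397, miR398 and miR408) was higher and 1 lower, or 2 lower with library totals.

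The miR395 family, which targets sulfate assimilation and transport genes, was higher in flower (log2 4.84 ± 0.90 SE, edgeR adjusted p = 0.00134). The sequence of miR395_3p and miR395g_3p had 713, 1711 and 2321 counts in flower and 1, 38 and 50 in root. MIR395r_3p, which shares its seed, had no read in flower and 15, 11 and 9 in root, at least 4.83-fold lower in flower against the floor of 3 counts per library. From MIR395r_3p to the flower sequence the differences are U1C and A14G. The miR399 family, which targets the phosphate regulator PHO2 in Arabidopsis, had 10, 82 and 7 counts in flower and 5, 82 and 169 in root and was not called. Of the sulfate and phosphate list (miR395, miR399 and miR2111), 2 of 4 tested sequences were higher and 1 lower. The second higher one was MIR2111a_3p (log2 2.08 ± 0.69 SE, edgeR adjusted p = 0.033), with 35, 115 and 69 counts in flower and 20, 9 and 12 in root. It was not called with library totals, nor without flower2, flower45, root23 or root33.

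Of the families that target the plant's own silencing machinery, no total was called. The miR168 family, which targets AGO1, had 29993, 30902 and 42358 counts in flower and 12776, 19088 and 19399 in root. Its organs overlapped in CPM, and its log2 fold change was 0.63 ± 0.45 SE (edgeR adjusted p = 0.281; called with the divisor and with DESeq2's size factors). The miR162 family, which targets DCL1, had a log2 fold change of 0.82 ± 0.56 SE and was not called. MIR403b_3p, of a family that targets AGO2, was higher (log2 1.41 ± 0.50 SE, edgeR adjusted p = 0.0435; not called with library totals nor without flower1, flower2, root13 or root23). The shared sequence of miR396h_3p and miR403a_3p had 78, 42 and 31 counts in flower and none in root, at least 12.8-fold higher in flower. Its seed, UUCAAGA, is unlike the UAGAUUC of the 2 other tested miR403 sequences and close to the UUCAAGG of miR396b_3p. Its place among the miR403 sequences therefore rests on the listed name alone. In this list 2 of 9 tested sequences were higher and none lower, with that sequence included. The number higher was 1 with library totals, which was the shared sequence, 4 with DESeq2's size factors and 5 with the divisor. Of the MYB list (miR159 and miR858), 2 of 5 were lower, both rare 5p sequences (MIR159c_5p and MIR159d_5p), while the main sequence, miR159a_3p/miR159b_5p, was not called (log2 0.24 ± 0.42 SE, edgeR adjusted p = 0.619). None of 3 tested miR482 sequences, whose family targets NBS-LRR resistance genes, was called.

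At the family level 14 of 37 totals were called (37.8%), 6 higher (16.2%) and 8 lower in flower (21.6%). Beyond those described, miR477 fell from 591, 1348 and 678 counts in root to 2, 38 and 17 in flower (log2 -5.88 ± 1.06 SE, edgeR adjusted p = 0.00134). The miR7122 family, known to start secondary small RNAs from pentatricopeptide repeat genes in other plants, had 1963, 609 and 1424 counts in flower and 4494, 5513 and 3345 in root (log2 -2.06 ± 0.59 SE, edgeR adjusted p = 0.015; not called without root23 or root33). The rare families miR5301 (log2 -4.82), miR4376 (-4.48), which targets a calcium ATPase gene in tomato, and miR1446 (-3.24) were also lower. Each had at most 38 counts in any library, and miR1446 was not called without flower1, root23 or root33. The single miR4376 sequence, of 19 bases, equals the start of MIR391a_5p, of 21 bases. MIR391a_5p had 176, 101 and 114 counts in flower and 141, 164 and 140 in root. It was not called (log2 -0.55, edgeR adjusted p = 0.428). Whether the miR4376 counts are shortened reads of MIR391a_5p was not tested. All 14 family calls except miR171 were made in the same direction under the 4 scalings. In 6 families (miR156, miR166, miR167, miR171, miR395 and miR396), members were called in both directions. In miR396 the sequences called higher were miR396a_3p/MIR396g-3p and miR396d_3p, and neither was called with library totals, without root13 or without root23, nor miR396d_3p without flower1.

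The change of members within families was tested directly against the rest of each family with diffSpliceDGE in edgeR, which compares a member with its own family in each library. Of 112 members tested, 48 differed (42.9%), 17 higher (15.2%) and 31 lower in flower (27.7%). The miR171 family had 14 of these, 5 higher and 9 lower of 16 tested, and miR156 had 10, 2 higher and 8 lower of 12. Sizes from this test are given as natural logs, not log2. The smallest p-values were those of MIR171v_3p (-5.81) and miR171b_3p/miR171m_3p (-5.80), both with an adjusted p of 2.49e-11 by diffSpliceDGE. Next were MIR171v_5p (-5.89), MIR167p_3p (-5.98) and MIR171leave_5p (-5.83). The test pools the residual spread over the members of a family, as if they were independent, so its p-values favour large families such as miR171. For miR171b_3p/miR171m_3p the unadjusted p was 4.41e-13 by diffSpliceDGE. On its own level the unadjusted p was 3.95e-06 by edgeR (log2 -7.11). By size the largest fitted change was that of MIR395r_3p (-8.04), which had no read in flower, so that its size depends on the fit. Of the members that gained within a family, MIR171z_5p (3.34) and miR171c_3p (3.07) had the smallest p. Of the 48, 11 were not called in the same direction on their own level, 1 of which, MIR172l_3p, was higher alone and lower against its family. For the miR168, miR393, miR397, miR403, miR477 and miR482 families, no member was called against the rest.

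The balance of the 2 arms of a hairpin, a ratio within each library, differed in 18 of 50 hairpins by limma at an adjusted p under 0.05 (36%), with a ratio of 5p to 3p higher in flower in 11 (22%) and lower in 7 (14%). Some of the 18 had an arm with hardly any reads. The 3p arms of miR156h and miR167c had at most 1 read in any library, so their ratios follow the 5p counts and the 0.5 added to each arm. MIR171t had no 5p read in root. The 5p arm was the stronger in all 6 libraries for 23 hairpins and the 3p arm for 21. The stronger arm changed with the organ in miR171b and MIR169k. The miR171b hairpin had 30, 106 and 50 counts of its 5p arm in flower against 21, 58 and 22 of the 3p arm, and 0, 0 and 1 of the 5p arm in root against 4166, 3495 and 3191. Its 3p sequence is also listed for miR171m and is miR171g_3p without the last U, so these reads cannot be assigned to 1 hairpin. In root, miR171g_3p had 15773, 13809 and 10203 counts, and whether shortened reads of it are among the 3p counts was not tested. MIR169k had 98, 41 and 20 counts of the 3p arm in flower against 3, 8 and 9 of the 5p arm, and 1, 2 and 12 of the 3p arm in root against 25, 31 and 32. Among the hairpins without such a change, MIR7122a fell furthest, with a log2 ratio of 2.69 ± 0.89 in flower and 9.55 ± 3.64 in root (SD, n = 3 each; adjusted p = 0.000511 by limma). Its 3p arm had 59, 0 and 6 counts in root, so the root ratio depends on the 0.5 added to each arm. MIR156j fell by 5.72, and miR396a fell by 4.91, its 5p arm lower and its 3p arm (840, 956 and 343 counts in flower and 145, 97 and 138 in root) higher in flower, the latter not called with library totals, without root13 or without root23. In 19 of the 50 hairpins an arm is also listed under another name. Among the hairpins without shared arms, tested alone, 8 of 31 were called.

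**Figure D5:**
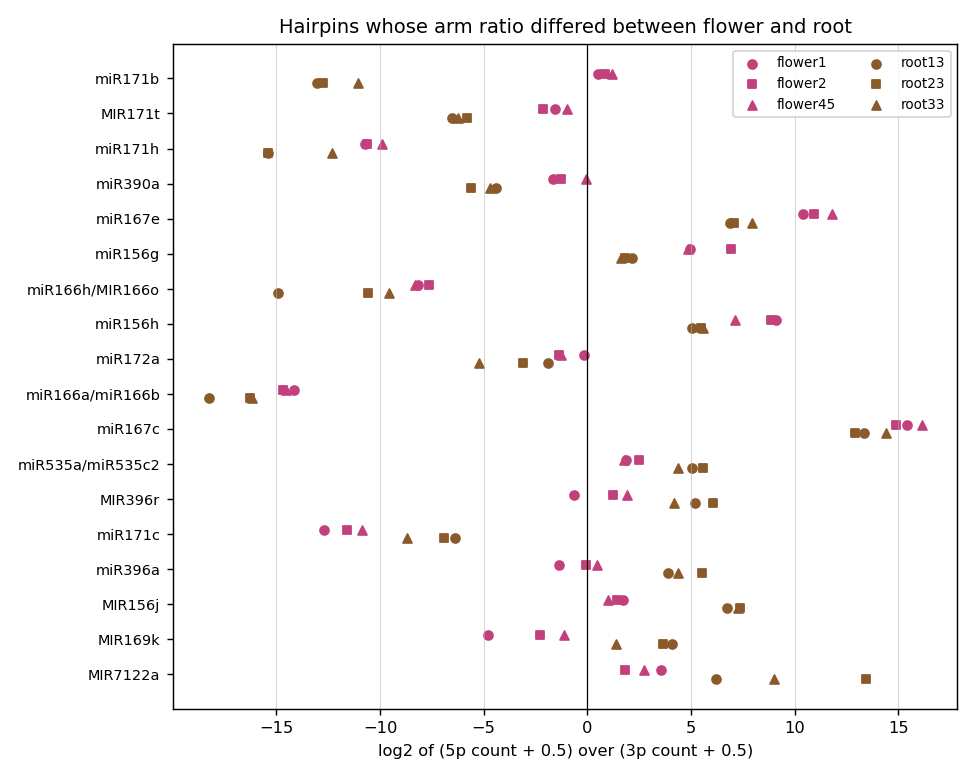
Points give the log2 ratio of 5p to 3p counts (0.5 added to each) in every library for the 18 hairpins whose ratio differed. The miR171b and MIR169k points of flower (pink) and root (brown) lie on opposite sides of 0, and those of miR171b are the farthest apart.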

How the data were processed

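Members and role lists were chosen with earlier results of these data known. Small RNA libraries were made, per the labels' protocols, with standard Illumina steps after ribosomal RNA removal. The deposited table, per the file headers, holds a whole-number count and a score called RPTM per library; the authors rounded the score, the header does not define it, and it equals the count divided by a constant per library, between 2.11 and 2.25. The sources used here do not name the trimming, alignment, counting rules or genome build. Names that share a sequence (U and T alike) were joined, and sequences under several families were left out of family totals, 63 families in all. A total of 4 sequences stood under several family names, and 29 sequences under 59 names.

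Counts of the 6 libraries went into edgeR 4.0.16 (R 4.3.3; TMM, filterByExpr, glmQLFit, glmQLFTest), where organ was the single factor and p-values were adjusted after Benjamini and Hochberg (threshold 0.05). The standard error of a log2 fold change is its size over the square root of F. Members were tested against the rest of their family with diffSpliceDGE, which gives its sizes as natural logs. Arm ratios (0.5 added, at least 10 reads over both arms in every library) were tested with limma 3.58.1. For single values, exact permutation tests (two-sided) were run in scipy 1.17.1. Fold bounds use 3 counts per library and, like the depth, cover counting error only. The sequence, member and arm tests were tried on simulated data, in which not all planted changes were recovered. The family totals and the permutation tests were not tried in this way.

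Named were the 12 largest changes in each direction with a mean of at least 50 CPM in the higher organ and no overlap, the 8 most abundant sequences per organ, called families, listed families and their members, 10 members within families, hairpins that change their stronger arm, and up to 10 sequences found in all libraries of 1 organ only. Alternatives were DESeq2 1.42.0, a minimum fold of 2, all 9 libraries, other scalings, no filter on low counts, every name counted on its own, and leaving out each library. Arms listed under 1 hairpin only were added after the data were seen.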

Additional observations from a re-analysis of the deposited data

Results flagged for a closer look

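The ratio of 5p to 3p arms differed in direction between the organs for 2 hairpins, by a limma test of the difference itself. For miR171b the log2 ratio was 0.85 ± 0.33 in flower and -12.28 ± 1.07 in root (SD, n = 3 each), a difference of 13.13 (limma adjusted p = 3.54e-09). The root libraries held 0, 0 and 1 read of the 5p arm, so the size of the difference is set by the 0.5 added to each arm. All 3 flower libraries lay above 0 and all 3 root libraries below it. Its 3p sequence is also listed for miR171m and is miR171g_3p without the last U. The part of the miR171m and miR171g hairpins in the ratio was not tested. For MIR169k the ratio was -2.74 ± 1.89 in flower and 3.04 ± 1.46 in root, a difference of -5.78 (limma adjusted p = 0.000283), with counts of at most 98 per arm and library.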

How the results depend on the processing

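The count of called sequences ranged from 55 (all 9 libraries in the fit, or a fold of at least 2) to 88 (every listed name counted on its own, 33 higher and 55 lower), and from 58 to 80 when 1 library was left out, against 70. The DESeq2 test called 75, and the fit with no low-count filter 84. Families called ranged from 11 to 19 against 14, with 10 higher and 8 lower under the DESeq2 size factors and 11 and 8 under the divisor. Members called within families ranged from 36 to 68 against 48. Hairpins called ranged from 13 to 20 against 18, except for the 8 among hairpins whose arms are listed under 1 name. Of the values per library, the effective number of sequences (10.8 in flower, 9.91 in root, exact p = 0.6) turned its difference from 0.88 to -0.0065 without root23, its lowest when 1 library was left out (highest 2.03), and to -8.40 without the miR166 family. The difference in sequences with a read turned from 10 to -1.67 among tested sequences. Signs that turned were of values not called with TMM, and 1 of them, the miR166 family with library totals, was then called (edgeR adjusted p = 0.0411). With library totals the log2 fold changes of families became -0.31 (miR159), -0.45 (miR166), -0.29 (miR319), -0.51 (miR396) and -0.36 (miR482), and those of the main miR159, miR166 and miR396 sequences -0.305, -0.28 and -0.31. With every name on its own, these 3 sequences stood at -0.14, -0.16 and -0.1476. With all 9 libraries miR166 was at -0.13 and miR396 at -0.13. The miR858 total was at 0.0701 with the DESeq2 size factors, 0.0702 with its test, 0.22 with the divisor, 0.0422 with no filter and 0.0305 in a fit of 8 libraries that lacked leaf41. When 1 library was left out, family totals ranged from -0.0192 to 0.68 (miR159), -0.31 to 0.45 (miR166), -0.27 to 0.77 (miR319), -0.24 to 0.34 (miR396), -0.0333 to 0.47 (miR482) and -0.51 to 0.81 (miR858). The main sequences ranged from -0.0191 to 0.68 (miR159), -0.14 to 0.65 (miR166) and -0.0681 to 0.54 (miR396). The cause of these changes was not tested. No paired analysis was possible because flower and root libraries share no number. Depth limits the rare families: 3 counts equal about 3.87 CPM in flower and 4.97 in root.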

Other observations

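Several miRNAs were present in some libraries of an organ and at 0 in another, and these were noticed after the values were seen. MIR482c had 48, 40 and 41 counts in flower1, flower2 and flower45, 0, 0 and 57 in root13, root23 and root33, and 63, 87 and 0 in leaf1, leaf23 and leaf41. MIR7122a_3p had 152, 136 and 189 counts in flower, 59, 0 and 6 in root, and 234, 172 and 0 in leaf. In flower, MIR159c_3p had 0, 26 and 358 counts and MIR156i_3p had 81, 0 and 18. MIR156p-3p had 75, 0 and 26 in flower and 15, 74 and 82 in root.

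Sequences read in all 3 libraries of one organ and in none of the other were mostly rare. Of the 9 found in flower and not in root, only the sequence of miR396h_3p and miR403a_3p passed the low-count filter. MIR171t_5p, with 12, 5 and 11 counts, was the next by level, at least 2.44-fold higher in flower against 3 counts per library. Of the 5 found in root and not in flower, the sequence of miR156c_5p and miR156e_5p and MIR395r_3p passed the filter. The leaf libraries had 0, 0 and 4 counts of the former and none of MIR395r_3p.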
